A study of Homo sapiens with 6 samples.

Results

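The aryl hydrocarbon receptor (AHR) pathway was examined in BT-549 cells, an established triple-negative breast cancer (TNBC) line, with and without silencing of PBRM1, a subunit of the PBAF chromatin remodeling complex. The 7 genes were chosen by function and symbol, with earlier results of these data known. They were the receptor AHR, its partner ARNT, its repressor AHRR, the target genes CYP1A1, CYP1B1 and TIPARP, and the aldehyde dehydrogenase ALDH1A3. All 7 were found among the 37887 gene rows of the count table, and 6 of the 7 were among the 15450 genes with enough counts to be tested. The control libraries (shCTL, n = 3) came from cells given 0.1% DMSO as vehicle, and the silenced libraries (shPBRM1, n = 3) from cells given 500 ng/ml doxycycline (DOX). The series design describes 1 stable line with an inducible PBRM1 shRNA in both arms, whereas the sample titles name a control shRNA for the vehicle arm. The effect of DOX and that of silencing therefore cannot be told apart. No genotype beyond the shRNA vector and no duration of DOX were given in the labels. Total counts were 36429395, 47996676 and 49784336 for shCTL replicates 1 to 3, and 60221790, 40035400 and 65096297 for shPBRM1 replicates 1 to 3. Levels are given in CPM, that is, counts after scaling by TMM for library size. A floor of 3 counts lay at 0.0471 CPM in the deepest library and at 0.0804 CPM in the shallowest, and such floors cover counting error only.

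AHR is a ligand-activated transcription factor of the bHLH-PAS family. Without ligand it is held in the cytosol by a complex with HSP90 and PTGES3 (p23), and with ligand it enters the nucleus, pairs with ARNT and binds xenobiotic response elements (XRE) with the core GCGTG. Its ligands include dioxins, polycyclic hydrocarbons and the tryptophan metabolites kynurenine and kynurenic acid. Its targets include the cytochrome P450 genes that oxidize such ligands, and AHRR and TIPARP, which feed back on the receptor. In breast cancer cells the pathway is known for links to migration, inflammation and ALDH-positive cells.

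Silencing was visible in every library. PBRM1 had 5870, 7619 and 8118 counts in shCTL and 2598, 1591 and 2657 in shPBRM1. Its level decreased from 158 ± 2.30 to 41.9 ± 1.22 CPM (mean ± SD, n = 3 in each group), so that 26.5% was left (log2 fold change -1.91, SE 0.027, edgeR quasi-likelihood adjusted p = 9.98e-23). The markers of the line were checked against the TNBC label. ESR1 had 0 counts in 5 libraries and 2 in the other, PGR had between 0 and 12 counts, and VIM, the mesenchymal intermediate filament, stood at 620.5 CPM in shCTL. In shPBRM1 VIM was higher, at 769.8 CPM (log2 fold change 0.31, edgeR adjusted p = 1.51e-07). CDH1 was lower, with 186, 226 and 271 counts in shCTL and 110, 58 and 77 in shPBRM1 (log2 fold change -1.73, edgeR adjusted p = 9.58e-10). EPCAM had between 0 and 8 counts. VIM and CDH1 thus differed between the groups. ERBB2 was at 51.3 CPM in shCTL (log2 fold change -0.04, adjusted p = 0.469), which gives its expression and not its copy number. Of the 6 blood and endothelial markers, CD3E had 0 counts in all libraries and CDH5 had at most 5. The summed level of the 6 was 1.018, 1.584 and 1.606 CPM in shCTL and 0.8662, 0.8737 and 0.8786 CPM in shPBRM1, with PTPRC the most abundant in each shCTL library and CD14 in each shPBRM1 library. PTPRC fell (26, 40 and 44 counts against 12, 4 and 6) and CD14 rose (9, 23 and 14 counts against 36, 29 and 44), though the CD14 call was lost without shCTL replicate 1, shCTL replicate 3 or shPBRM1 replicate 3. The part of these low counts in the results below was not tested.

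The receptor itself was lower in shPBRM1 while 3 of its target genes were higher. Among the 6 tested members, AHR and ALDH1A3 were lower, AHRR, CYP1B1 and TIPARP were higher, and ARNT was not called. Much of the transcriptome differed between the groups, with 31.5% of tested genes called higher and 33.2% called lower at an adjusted p under 0.05. The 5 called members of 6 are thus not far from the background. The normalized values of the 2 groups did not overlap for 5 of the 6 tested members, against 68.3% of all tested genes. With a fold change over 2 required as well, 0 members were higher, against 2.87% of all tested genes, and 1 member, ALDH1A3, was lower, against 9.68%. The median log2 fold change of the 6 was 0.15, beside -0.008 over all tested genes, which spread from -0.40 to 0.31 between the quartiles.

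**Figure D1:**
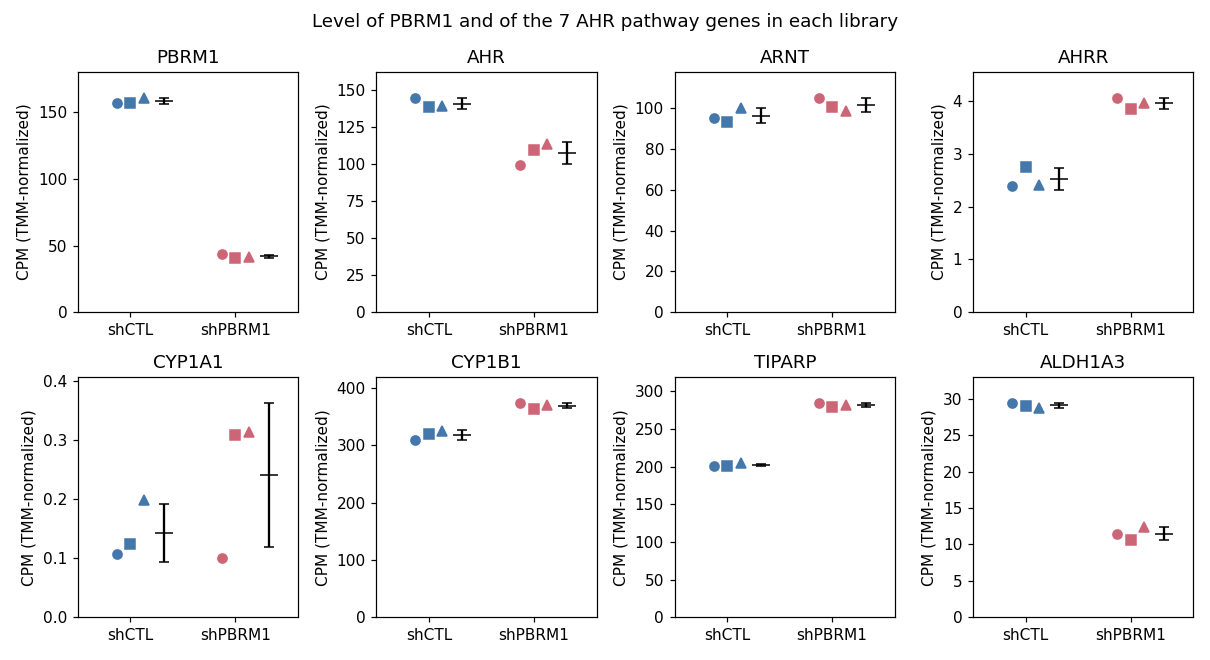
Each panel plots 1 gene, with the group on the x axis and the TMM-normalized level in CPM on the y axis, which starts at 0; circles, squares and triangles are replicates 1, 2 and 3, and the black mark is the mean ± SD. PBRM1, AHR and ALDH1A3 lie lower in all 3 shPBRM1 libraries, AHRR, CYP1B1 and TIPARP lie higher in all 3, and the groups overlap for ARNT and CYP1A1.

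AHR, the ligand-binding subunit, had 5412, 6732 and 7024 counts in shCTL and 5970, 4278 and 7231 in shPBRM1. After scaling for depth, these were 145.0, 138.5 and 139.3 CPM against 99.4, 109.9 and 113.5 CPM. Every shPBRM1 library was below every shCTL library, with replicate 1 the lowest of the silenced cells and the highest of the controls. AHR fell from 140.9 ± 3.56 to 107.6 ± 7.28 CPM (log2 fold change -0.39, SE 0.061, edgeR adjusted p = 2.14e-08), which placed it at percentile 25.3 of all tested genes. The median absolute log2 fold change over all tested genes was 0.35, so that the size of the AHR change was near the middle of the background. In GENCODE 29, exons of AC019117.2 on the same strand and of AC073332.1 on the other overlap AHR exons; both were not analysed here.

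ARNT, the nuclear partner without which AHR does not bind DNA, was at 95.4, 93.0 and 100.2 CPM in shCTL and 105.2, 100.8 and 98.4 CPM in shPBRM1. The groups overlapped, since shCTL replicate 3 lay above shPBRM1 replicate 3. The log2 fold change was 0.08 with an SE of 0.042 (edgeR adjusted p = 0.0714). This call rests on single libraries: the adjusted p was 0.0287 without shCTL replicate 3 and 0.0427 without shPBRM1 replicate 3, with log2 fold changes of 0.11 and 0.10. The balance of the 2 partners moved with AHR. Each shCTL library had 152, 148.8 and 139 AHR counts per 100 ARNT counts, and each shPBRM1 library had 94.57, 109.1 and 115.3. The mean ratio went from 146.6 ± 6.77 to 106.3 ± 10.6 (SD, n = 3), a ratio within each library that does not depend on the scaling between libraries.

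Compared per kilobase of merged annotated exon, the 2 partners were nearly equal in the control cells. This length pools annotated transcripts, and which of them these cells express was not examined. The SDs below therefore leave out any error in length. AHR had 18.4 ± 0.464 CPM per kb and ARNT 19.5 ± 0.742 CPM per kb, a difference smaller than the sum of their SDs. In the silenced cells AHR was at 14.04 ± 0.950 and ARNT at 20.5 ± 0.697 CPM per kb, a difference larger than that sum. The most abundant members were targets, with CYP1B1 at 57.9 ± 1.51 and TIPARP at 42.0 ± 0.371 CPM per kb in shCTL. ALDH1A3 was at 5.36 ± 0.0604 CPM per kb in shCTL, above AHRR at 0.401 ± 0.0327 and CYP1A1 at 0.0464 ± 0.0158, and these neighbours in the order differed by more than their spread, as did CYP1B1 from TIPARP and TIPARP from ARNT. The order of the 7 genes in shPBRM1 was the same, from 67.3 CPM per kb for CYP1B1 to 0.0781 for CYP1A1.

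AHRR, a target of AHR that competes with it for ARNT, had few counts, with 89, 134 and 122 in shCTL and 244, 150 and 253 in shPBRM1. Scaled for depth these were 2.38, 2.76 and 2.42 CPM against 4.06, 3.85 and 3.97 CPM, without overlap and with little spread within shPBRM1. AHRR rose from 2.52 ± 0.206 to 3.96 ± 0.105 CPM (log2 fold change 0.65, SE 0.069, edgeR adjusted p = 1.39e-04). Its position among all tested genes was percentile 91. Per 100 AHR counts, the libraries had 1.64, 1.99 and 1.74 AHRR counts in shCTL and 4.09, 3.51 and 3.50 in shPBRM1, so that the repressor increased relative to the receptor by a factor of 2.07. An exon of PDCD6 on the same strand overlaps AHRR exons. PDCD6 had 189, 209 and 208 counts in shCTL and 351, 219 and 299 in shPBRM1 (log2 fold change 0.26, adjusted p = 0.0578), and how reads in the shared exon were assigned was not given in the sources used here.

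**Figure D2:**
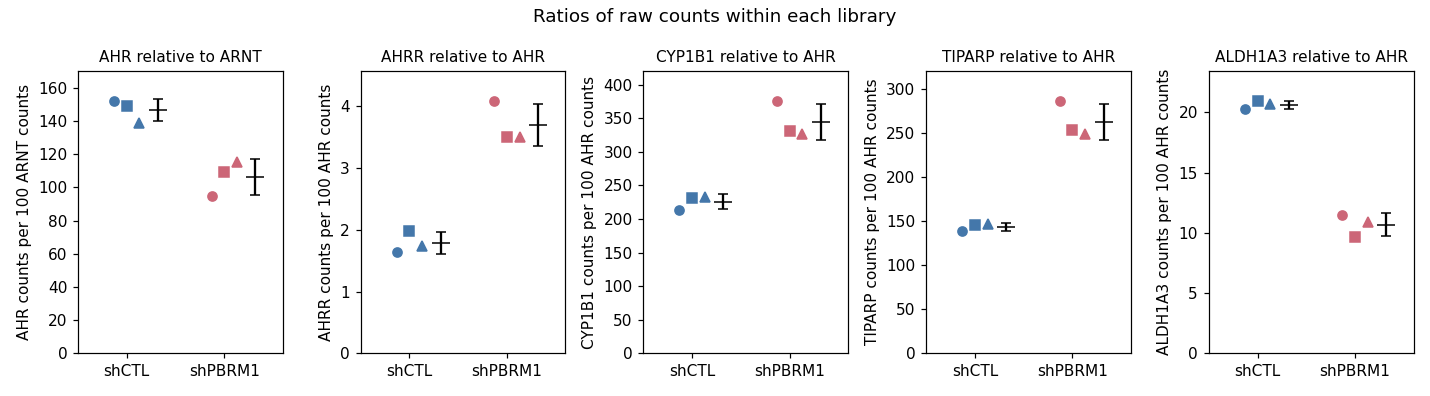
Each panel plots 1 ratio of raw counts within a library, with the group on the x axis and the counts of the first gene per 100 counts of the second on the y axis, which starts at 0; circles, squares and triangles are replicates 1, 2 and 3, and the black mark is the mean ± SD. AHR relative to ARNT and ALDH1A3 relative to AHR lie lower in the 3 shPBRM1 libraries, and AHRR, CYP1B1 and TIPARP relative to AHR lie higher.

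The XRE cores near the starts of these genes are shown because the pathway is defined by binding there. Of the 7 genes, 6 matched a RefSeq promoter (build GRCh38.p14), with 9 windows of 300 bases that run from 250 bases before to 50 after a transcription start. The letters GCGTG were searched on both strands, and each match is printed along the strand on which it reads GCGTG, with these letters in capitals and up to 10 bases on either side. Minus marks a match before the start.
AHRR, first window, base -30, chr5:321674-321698, plus strand: cgggcggctcGCGTGccggggtggg
AHRR, second window, base -247, chr5:322360-322377, plus strand: ggcGCGTGacaggcaggg
AHRR, second window, base -42, chr5:322558-322582, plus strand: agaagggtggGCGTGtgcgcgcgtt
CYP1A1, base -57, chr15:74725571-74725595, minus strand: agggaaggagGCGTGgccacacgta
TIPARP, first window, base -208, chr3:156674372-156674396, minus strand: ccgcgaggggGCGTGtcctttctcg
TIPARP, first window, base -142, chr3:156674438-156674462, minus strand: ccctgcgcgcGCGTGcgcgttcgtt
ALDH1A3, base -197, chr15:100879624-100879648, minus strand: ggctccacccGCGTGccgcggaccg
ALDH1A3, base -43, chr15:100879778-100879802, plus strand: cgggcgggagGCGTGgggcgctgca
AHR, base 38 after the start, chr7:17298679-17298701, plus strand: tgttccgagaGCGTGccccggac

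The ARNT window and the other 2 TIPARP windows had 0 matches. A match was common among promoters, since 36.5% of 35116 RefSeq windows of this length hold GCGTG on either strand. It was also present before the start both in genes that were higher (AHRR, TIPARP) and in the member that was lowest (ALDH1A3). A longer form, TNGCGTG, was chosen after the matches had been seen. It was found in 5.51% of all windows and, among the members, in the first AHRR window alone. Neither the ISRE-like motif (GAAA, any 2 bases, GAAA) nor the GAS-like motif TTCNNNGAA was found in any of the 9 windows, against 3.57% and 7.66% of all windows. The 250 bases before the first AHRR start, chr5:321464-321713 on the plus strand, show the setting of its GCGTG, with that core in capitals.
AHRR, 250 bases before the start: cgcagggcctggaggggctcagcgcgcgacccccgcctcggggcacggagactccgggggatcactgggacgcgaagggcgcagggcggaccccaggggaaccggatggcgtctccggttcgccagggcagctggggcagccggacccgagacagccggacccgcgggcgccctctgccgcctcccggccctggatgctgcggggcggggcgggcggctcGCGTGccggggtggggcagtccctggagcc

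**Figure D3:**
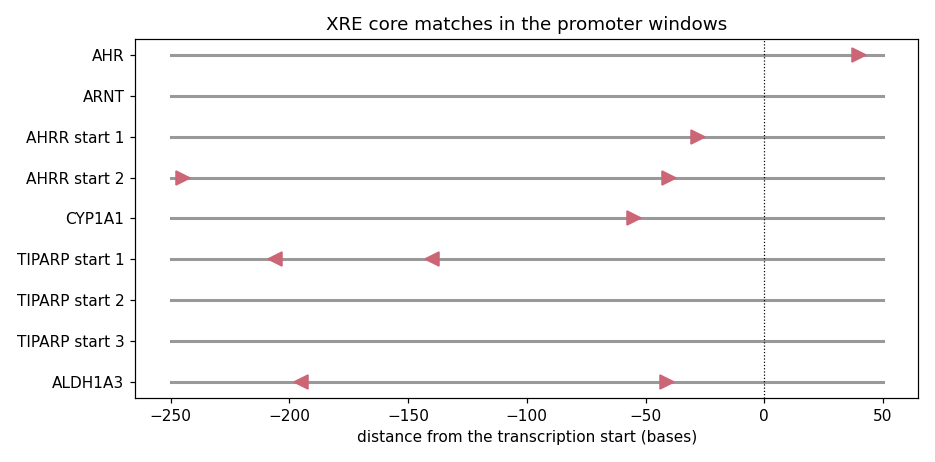
Each grey line is 1 RefSeq promoter window, with the distance from the transcription start in bases on the x axis, and each triangle is a match of the XRE core that points right when it lies on the strand of the gene and left when it lies on the other strand. AHRR, CYP1A1, TIPARP and ALDH1A3 have matches before a start, AHR has 1 after it at base 38, and the ARNT window has 0.

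CYP1B1, a P450 that hydroxylates estrogens and polycyclic hydrocarbons, was the most abundant member. It had 308.9, 320.0 and 325.1 CPM in shCTL and 373.6, 364.1 and 370.5 CPM in shPBRM1. The shPBRM1 libraries lay close together and above all controls. CYP1B1 rose from 318 ± 8.29 to 369 ± 4.82 CPM, a small change (log2 fold change 0.22, SE 0.024, edgeR adjusted p = 4.01e-05) at percentile 68 of tested genes. Exons of CYP1B1-AS1 and RMDN2 on the other strand and of RMDN2-AS1 on the same strand overlap it. CYP1B1-AS1 had between 49 and 121 counts in a library, RMDN2 between 13 and 52 and RMDN2-AS1 between 0 and 13, beside 11529 or more for CYP1B1.

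TIPARP, a mono-ADP-ribosyltransferase that modifies AHR and limits its activity, was at 201.0, 201.3 and 204.3 CPM in shCTL and at 284.5, 278.8 and 281.5 CPM in shPBRM1. Both groups were tight and well apart. TIPARP rose from 202.2 ± 1.78 to 281.6 ± 2.88 CPM (log2 fold change 0.48, SE 0.011, edgeR adjusted p = 5.05e-11), at percentile 84.4. Relative to AHR, TIPARP counts went from 143.6 ± 4.35 to 262.6 ± 20.5 per 100 AHR counts, and CYP1B1 counts from 225.8 ± 11.2 to 344.5 ± 27.1. The antisense gene TIPARP-AS1 had between 6 and 31 counts in a library.

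CYP1A1, the P450 most commonly used as a readout of AHR activation, was near the limit of detection. Its counts were 4, 6 and 10 in shCTL and 6, 12 and 20 in shPBRM1, or 0.143 ± 0.0486 and 0.241 ± 0.122 CPM. The groups overlapped, and the gene had too few counts to enter the test. Fitted without the count filter, the log2 fold change was 0.70 (edgeR adjusted p = 0.397). A difference was thus not detectable at this depth. CYP1A2, the liver P450 of the same family, had 0 counts in all 6 libraries.

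ALDH1A3, which oxidizes retinaldehyde to retinoic acid and marks ALDH-positive breast cancer cells, changed by more than any other member that was tested. It was at 29.4, 29.01 and 28.8 CPM in shCTL and at 11.4, 10.6 and 12.4 CPM in shPBRM1, far apart relative to the spread. Its level fell from 29.1 ± 0.328 to 11.5 ± 0.897 CPM, which left 39.4% (log2 fold change -1.33, SE 0.066, edgeR adjusted p = 3.38e-14, percentile 6.8). Relative to AHR, its counts went from 20.6 ± 0.326 to 10.7 ± 0.951 per 100 AHR counts, so that it fell further than the receptor. It was the main ALDH1A gene of these cells. ALDH1A1 had 0 counts in all libraries and ALDH1A2 had 2 counts in 1 library. Exons of AC015712.5 on the same strand and of AC015712.2 on the other overlap ALDH1A3, and were not analysed here.

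The genes most like AHR and ALDH1A3 across the 6 libraries were sought among the 11526 genes that averaged 100 counts or more, by the root mean square difference in log2 CPM after centering each gene on its mean. For AHR these were ERCC5 (difference 0.031), the DNA repair endonuclease XPG, FRAT2 (0.039), a regulator of Wnt signaling, and ASB7 (0.040), a SOCS-box protein. For ALDH1A3 these were STAMBPL1 (0.043), a deubiquitinase, HES6 (0.045), a bHLH factor of the Notch-related family, and FN1 (0.045), fibronectin. The likeness is measured over 2 groups of 3 and follows mostly from the difference between the groups.

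**Figure D4:**
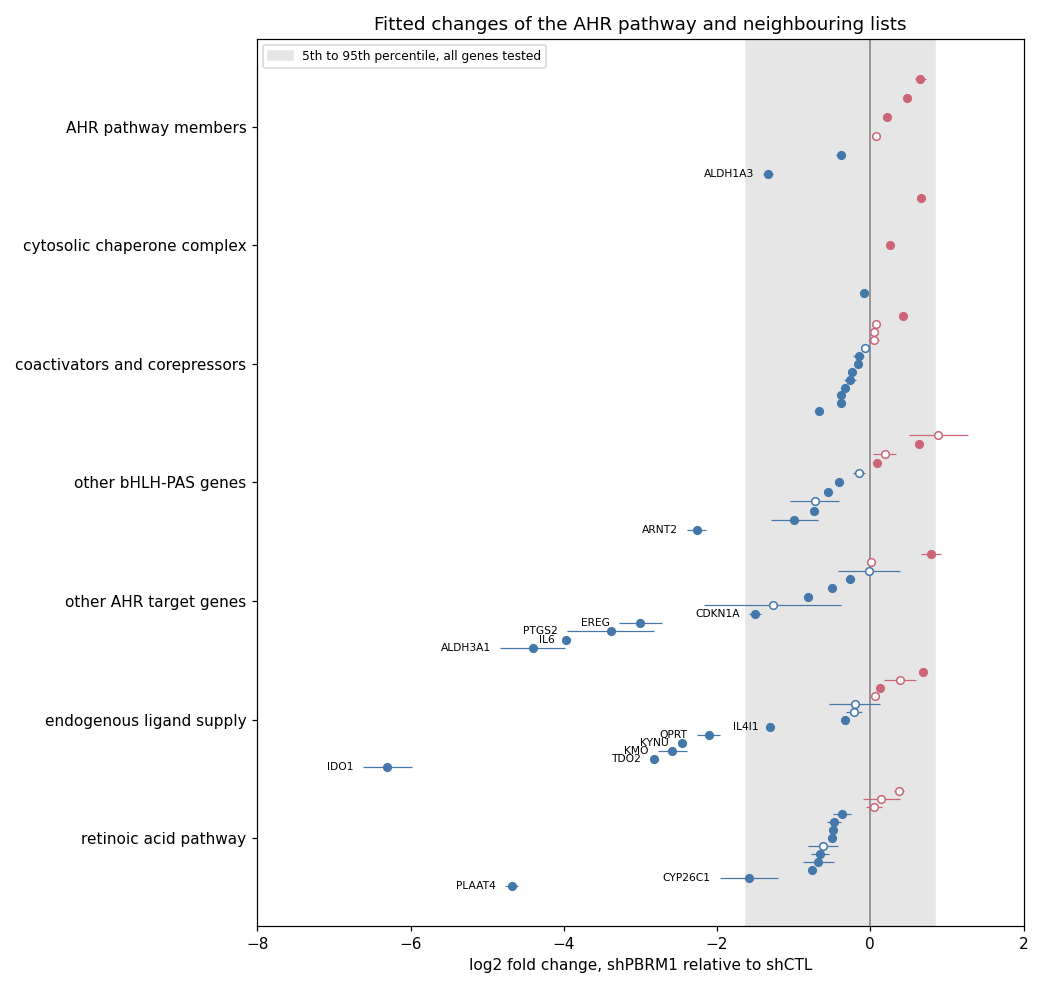
Each point is a tested gene of the lists on the y axis, leaving out genes not reported here, with the fitted log2 fold change of shPBRM1 relative to shCTL on the x axis and its list on the y axis; bars are SEs from the replicates, filled points have an adjusted p under 0.05, open points do not, and the grey band spans the 5th to 95th percentile of all tested genes (-1.62 to 0.85). Filled points with a fold change over 2 are named, all of them lower, and most lie in the lists of other AHR targets and of ligand supply.

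In the cytosolic complex that holds AHR, 3 of 4 genes rose and 1 fell, none by over 2-fold, with a median log2 fold change of 0.20, against 31.5% of all tested genes higher and 33.2% lower. With so few genes, this count is not a result about the list. PTGES3, the co-chaperone p23, moved furthest, from 366.3, 370.4 and 367.6 CPM to 578.8, 585.1 and 582.5 CPM (log2 fold change 0.66, SE 0.0066, adjusted p = 4.33e-13). HSP90AB1, the constitutive HSP90, rose by 0.25 on the log2 scale (adjusted p = 5.7e-07). The number of this list called higher was 2 without shCTL replicate 1, shCTL replicate 3, shPBRM1 replicate 2 or shPBRM1 replicate 3. HSP90AA1, the inducible HSP90, fell by 0.08 on the log2 scale (adjusted p = 0.0239), a call that did not hold without shCTL replicate 2, shCTL replicate 3 or shPBRM1 replicate 1, nor without the filter on low counts (edgeR adjusted p between 0.0528 and 0.184).

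Of 13 coactivators and corepressors, 1 was higher, 8 were lower and 4 were not called, with a median of -0.16, beside 31.5% higher and 33.2% lower over all tested genes. SMARCA4 (BRG1), the ATPase shared by BAF and PBAF complexes, was the 1 that rose, with 195.5, 204.3 and 207.4 CPM in shCTL and 272.5, 281.5 and 261.4 CPM in shPBRM1 (log2 fold change 0.42, adjusted p = 1.95e-09). NCOR1, a corepressor, fell by 0.16 on the log2 scale (adjusted p = 7.49e-04), and NCOA3, a p160 coactivator, had a log2 fold change of 0.05 (adjusted p = 0.239). RELB, an NF-κB subunit that can pair with AHR, had the lowest value of the list at -0.67 (adjusted p = 1.07e-10) and was chosen after its value was seen.

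Among 13 other bHLH-PAS genes, 11 were tested, of which 2 were higher, 5 lower and 4 not called, with a median of -0.41. Over all tested genes, 31.5% were higher and 33.2% lower, so that the lower share is not far from the background. ARNT2, a paralog of ARNT that can pair with AHR, had 130, 165 and 169 counts in shCTL and 41, 33 and 40 in shPBRM1. It fell from 3.4 to 0.7 CPM (log2 fold change -2.27, SE 0.124, adjusted p = 1.5e-10), the 1 gene of this list past 2-fold. HIF1A, the hypoxia factor that competes for ARNT, fell by 0.41 on the log2 scale (adjusted p = 4.55e-09), and EPAS1 (HIF-2α) rose by 0.09 (adjusted p = 0.032), a call lost without shCTL replicate 1, shCTL replicate 3, shPBRM1 replicate 2 or shPBRM1 replicate 3 (edgeR adjusted p between 0.0653 and 0.0714), and without the filter on low counts (0.0644). SIM1, a developmental factor that was abundant in this line at 140.2 CPM, had a log2 fold change of -0.74 (adjusted p = 8.87e-15). The other higher gene, named after its value was seen, was ARNTL2, a clock factor, at 0.63 (adjusted p = 1.14e-13).

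The other AHR targets were mostly lower, unlike CYP1B1, TIPARP and AHRR. Of 17 genes, 12 were tested, and 1 was higher, 8 lower and 3 not called, with 5 lower by over 2-fold and a median of -1.04. This median lies between NFE2L2 at -0.81 and GSTA2 at -1.27, so that it rests in part on a gene with few counts. GSTA2, named after its value was seen, had 8, 6 and 16 counts in shCTL and 0, 10 and 4 in shPBRM1. It was not called (edgeR adjusted p = 0.133). Over all tested genes, 33.2% were lower and 9.68% lower by over 2-fold, and no test of the list was made. IL6, an inflammatory cytokine, had 141.3, 145.0 and 144.7 CPM in shCTL and 8.85, 9.35 and 9.38 CPM in shPBRM1 (log2 fold change -3.97, SE 0.030, adjusted p = 3.61e-27). CDKN1A, the cell cycle inhibitor p21, fell from 36.5, 40.2 and 39.0 CPM to 12.5, 14.3 and 14.2 CPM (log2 fold change -1.50, adjusted p = 2.17e-15). The groups were far apart for both.

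The remaining targets called with a fold change over 2 had low counts. PTGS2, cyclooxygenase 2, had 26, 66 and 52 counts in shCTL and 2, 2 and 12 in shPBRM1 (log2 fold change -3.39). Most of its shPBRM1 counts came from replicate 3, so that the size of its fall depends on that library. EREG, an EGF receptor ligand, had 26, 34 and 22 counts against 6, 2 and 4 (log2 fold change -3.00). ALDH3A1, an aldehyde dehydrogenase of the classic AHR battery, had 12, 15 and 34 counts against 0, 1 and 2. Summed over the groups, its ratio of shCTL to shPBRM1 was 24.3, with an exact 95% counting interval of 7.92 to 120.9. The 3 targets with the highest mean counts were all lower. NQO1, a quinone reductase, had a log2 fold change of -0.26 (adjusted p = 3.5e-06) and MYC of -0.50 (adjusted p = 2.97e-10). NFE2L2, the oxidative stress factor NRF2, was at -0.81 (adjusted p = 1.78e-15). CDKN1B, named after its value was seen, was also abundant at 94.6 CPM in shCTL and was not called (log2 fold change 0.01, edgeR adjusted p = 0.838). The 1 higher gene, named after its value was seen, was IL1B, with 22, 23 and 29 counts against 51, 41 and 60 (log2 fold change 0.79, adjusted p = 0.0155), a call lost without shCTL replicate 2 (edgeR adjusted p = 0.0607). UGT1A1 and UGT1A6 were listed at 0 in all libraries, and since genes of this locus share exons, reads could have been left unassigned.

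Among genes that supply endogenous AHR ligands, IDO1 and TDO2 fell steeply. The ligand-supply list also holds enzymes that consume kynurenine or act further down, so its counts do not measure supply alone. Of 15 genes, 13 were tested, with 2 higher, 7 lower and 4 not called, and 6 were lower by over 2-fold (median -0.33), beside 33.2% lower and 9.68% lower by over 2-fold over all tested genes. The enzymes at the entry to the kynurenine pathway fell, with IDO1 at 39.0, 39.3 and 37.2 CPM in shCTL and 0.716, 0.360 and 0.345 CPM in shPBRM1 (log2 fold change -6.30, SE 0.317, adjusted p = 7.59e-22). TDO2, the second enzyme that opens the tryptophan ring, went from 32.4, 32.4 and 33.7 CPM to 4.33, 4.75 and 4.82 CPM (-2.83, adjusted p = 1.02e-19). Neither pair of groups came near overlap.

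Of the enzymes that consume kynurenine, KYNU (kynureninase) and KMO (kynurenine 3-monooxygenase) fell, with log2 fold changes of -2.46 and -2.59. The kynurenine aminotransferases, named after their values were seen, differed in their calls, with KYAT3 lower at -0.33 (adjusted p = 6.89e-05), and KYAT1 at 0.39 (adjusted p = 0.307) and AADAT at -0.20 (adjusted p = 0.657) not called. QPRT, which acts further down toward NAD, fell by 2.11 on the log2 scale. IL4I1, an amino acid oxidase that forms indole-3-pyruvate from tryptophan, fell by 1.30 on the log2 scale (adjusted p = 2.51e-11). The transporters behaved otherwise. SLC7A5 (LAT1), which carries tryptophan and kynurenine, was at 867.1, 885.3 and 865.7 CPM in shCTL and 1386, 1481 and 1361 CPM in shPBRM1 (log2 fold change 0.69, adjusted p = 1.07e-13), and SLC1A5, a glutamine carrier, rose by 0.12 (adjusted p = 0.0128), a call lost without shCTL replicate 3 (edgeR adjusted p = 0.0554). SLC3A2, the partner chain of LAT1, had a log2 fold change of 0.06 (adjusted p = 0.178). Transcript levels do not give the amount of any ligand.

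**Figure D5:**
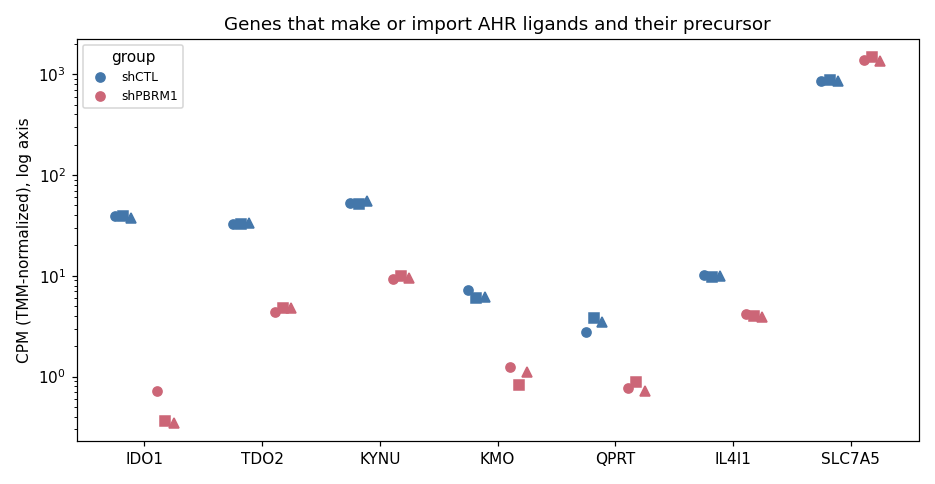
The 6 genes of the ligand-supply list that fell by over 2-fold and the transporter SLC7A5 are on the x axis, with the TMM-normalized level in CPM on a log y axis. Of these genes, KYNU and KMO consume kynurenine and QPRT acts further down. Each marker is a library, and circles, squares and triangles are replicates 1, 2 and 3. The shPBRM1 libraries lie below the shCTL libraries for the 6 enzymes, with IDO1 under 0.72 CPM, and above them for SLC7A5.

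ALDH1A3 belongs to the retinoic acid pathway, where 14 of the 20 other genes listed were tested, with 0 higher and 10 lower (median -0.56). PLAAT4 (RARRES3), a phospholipase named as a retinoic acid responder, had 233, 356 and 349 counts in shCTL and 15, 10 and 18 in shPBRM1 (log2 fold change -4.68, SE 0.082, adjusted p = 1.56e-16). CYP26C1, which degrades retinoic acid, fell on 9, 13 and 11 counts against 7, 1 and 5 (-1.59, adjusted p = 0.0194), a call lost without shCTL replicate 2, shPBRM1 replicate 2 or shPBRM1 replicate 3 (edgeR adjusted p between 0.0591 and 0.0683), and without the filter on low counts (0.0525). Next to them, DHRS3 and RDH10, which interconvert retinol and retinaldehyde, were lower, with log2 fold changes of -0.76 (adjusted p = 1.34e-14) and -0.51 (adjusted p = 6.74e-09). RARG, a retinoic acid receptor, had a log2 fold change of 0.05 (adjusted p = 0.52). The share of these genes called lower, 10 of 14, is above the 33.2% of all tested genes, and no test of the list was made.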

How the data were processed

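RNA-seq of BT-549 cells was analyzed in 3 shCTL and 3 shPBRM1 libraries, cultured in triplicate and made with a stranded mRNA kit. The deposited table holds the authors' unnormalized read counts by gene symbol, and p-values measure the spread between these cultures. The submitters' processing notes name CASAVA 1.8.2, STAR 2.7.9a, featureCounts, DESeq2 1.24.0 and GRCh38.p7; annotation and strand setting are not given in the sources used here. Control columns carry only the line name and a number, and were matched to the control titles by that number.

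Counts were tested with edgeR 4.0.16 (R 4.3.3; TMM, filterByExpr, quasi-likelihood F-test, Benjamini-Hochberg over 15450 genes). A call is an adjusted p under 0.05. SEs come from log2 CPM with a prior count of 2. Alternatives were DESeq2 1.42.0, RLE factors, library size only, no filter, a mean of at least 50 counts, a fold change over 2, the replicate block and each library left out. Positions and exon lengths are from GENCODE 29, which covered 102 of 102 listed genes. In it AHR lies on chromosome 7 from 16916359 to 17346152, ARNT on chromosome 1 from 150809705 to 150876768, AHRR on chromosome 5 from 304176 to 438291, CYP1A1 on chromosome 15 from 74719542 to 74725610, CYP1B1 on chromosome 2 from 38066973 to 38109902, TIPARP on chromosome 3 from 156673235 to 156706770, ALDH1A3 on chromosome 15 from 100877714 to 100916626 and PBRM1 on chromosome 3 from 52545352 to 52685917.

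Members and lists were chosen with earlier results of these data known. Named genes are the members, PBRM1, list genes called with a fold change over 2, up to 3 others per list by mean count, and the 3 nearest genes of AHR and ALDH1A3. Genes marked as named after their values were seen were added to these. Results for some listed genes are not reported here, though list counts and medians include them. Deviations from the group means correlated at 0.734, 0.593 and 0.419 for the same replicate number, across 5622 genes. For different numbers they correlated at between -0.671 and 0.464. Every same-number value was over 0.1, so the numbers were taken as pairs in the replicate block. Since 0.464, for shCTL replicate 2 with shPBRM1 replicate 3, is above 0.419, the pairs are not certain. The main fit and the SEs used no pairs. Fits were tested on simulated data.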

Additional observations from a re-analysis of the deposited data

How the results depend on the processing

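Of 292 values under an alternative, 258 kept their direction and side of the threshold or, for counts, lay within 1.5 times the main count. Among the log2 fold changes 0 reversed, while counts of calls have no direction to reverse. Short of requiring a fold change over 2, no alternative lost the call of a called member. With a fold change over 2 required, the counts of higher and lower genes were 0 and 1 for the members, 0 and 0 for the chaperone complex and for the coactivators, 0 and 1 for other bHLH-PAS genes, 0 and 5 for other AHR targets, 0 higher for ligand supply, 3 lower for the retinoic acid pathway, and 443 and 1496 for all genes. Chaperone genes lower were 0 without the filter and 0 to 1 with a library left out. Coactivators higher were 2 with RLE factors and 1 to 2 with a library left out. Other bHLH-PAS genes higher were 1 with library size only or no filter and 1 to 2 with a library left out. Other AHR targets were 0 higher and 5 lower at a mean of at least 50 counts, with 0 to 1 higher when a library was left out. Ligand-supply genes higher were 1 with library size only and 1 to 2 with a library left out, and retinoic acid genes higher were 0 to 1. With library size only, EPAS1 (edgeR adjusted p = 0.374) and SLC1A5 (0.131) lost their calls. The cause of these shifts was not tested. With a library left out, log2 fold changes lay between -0.43 and -0.33 for AHR, 0.05 and 0.11 for ARNT, 0.62 and 0.72 for AHRR, 0.19 and 0.23 for CYP1B1, 0.47 and 0.49 for TIPARP, and -1.39 and -1.28 for ALDH1A3. With the replicate block, 4973 genes were higher and 5226 lower, and AHR was at -0.39, with no call of a member changed. Library size only moved the median of all genes by -0.05. CYP1A1, ALDH3A1, PTGS2, EREG and CYP26C1 are limited by depth.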
